A study of Mus musculus with 8 samples.

Results

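Across 45402 distinct autosomal regions of open chromatin, 470 regions (1.04%) were more accessible in T cells of mouse visceral adipose tissue (VAT) than in spleen regulatory T cells (Tregs), in fat Tregs of both sexes and in the other CD4 T cells of the same fat. The assay, ATAC-seq, reads accessibility from where a transposase inserts adapters into DNA. Levels are given as CPM, the reads counted in a region per 1000000 reads that the library had over all autosomal regions. A region was kept when all 6 VAT libraries lay above both spleen libraries, when each VAT group mean was at least 1.3 times the spleen mean, when the VAT CD4 mean was at least 0.67 times the mean of the 4 VAT Treg libraries, and when the mean of the VAT libraries was at least 2 CPM. Of 37436 regions that met the last criterion alone, 1.26% were kept. The first criterion was met by 1686 regions, the first and second by 887, these and the level by 600, and the CD4 criterion then left out 130. The regions were thus chosen by their VAT and spleen levels and by the CD4 level relative to Tregs, and both are given as descriptions without a test.

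The 8 libraries form 4 groups of 2: reporter-negative CD4 T cells from male VAT, reporter-positive Tregs from male VAT, reporter-positive Tregs from female VAT, and reporter-positive Tregs from male spleen. All mice were C57BL/6 carrying a red fluorescent protein reporter of Foxp3 (Foxp3RFP), cells were flow-sorted, and each library was pooled from 3 mice; ages are not given in the sources used here. No library of spleen CD4 cells or of female CD4 cells enters, so that tissue cannot be told apart from cell type in the comparison of VAT CD4 cells with spleen Tregs. In pooled cells a region open in fewer cells and a region less open in each cell cannot be told apart.

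Foxp3 encodes the transcription factor that defines Tregs, which restrain other immune cells, and Tregs of visceral fat are known for a program that limits inflammation there. CD4 T cells that enter a tissue also share changes unrelated to Foxp3, among them antigen receptor signalling, NF-kB signalling and the loss of recirculation. An accessible region marks DNA that factors can bind, either at a promoter, where transcription starts, or at a distal element such as an enhancer.

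Autosomal counts per library ran from 5669084 to 15630184, the pair of VAT CD4 libraries being the shallowest. Male VAT Treg replicate 1 stood apart, since regions under 1000 bp took 5.53% of its counts, against 3.55 to 4.26% in the other 7 libraries. The 6 regions assigned to Foxp3 summed to 35.1 and 39.6 CPM in VAT CD4 cells, 89.2 and 54.5 CPM in male VAT Tregs, 114 and 114 CPM in female VAT Tregs, and 56.1 and 70.3 CPM in spleen Tregs, so the CD4 libraries were the lowest at this locus. The summed levels of B cell, myeloid, CD8 and NK cell, ILC2 and mast cell, and adipocyte marker regions overlapped between VAT and spleen libraries; their part in the results was not tested. Stromal and endothelial marker regions summed to 669 to 865 CPM over the 6 VAT libraries and to 679 and 690 CPM in spleen. Csf1r, Adgre1, Lyz2, Ms4a1, Cd8a and Lep, defining markers of such cells, had no region in the table.

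Promoter windows were searched for short motifs, and 4 are printed because their motif lies inside the open region; they were chosen after the shares were seen. Each line gives the 250 bases before the gene's start, 5′ to 3′ on the strand of the gene, from RefSeq (GRCm38.p6). Capitals mark TGACGTCA, the cAMP response element (CRE) bound by CREB and ATF factors, in the first 3, and a loose form of the NF-kB site (GGG, any 5 bases, then CC) in Birc3. Ppp1r15a encodes a phosphatase subunit of the stress response (chr7:45526269-45526518, minus strand), Pak1 a kinase that shapes the cytoskeleton (chr7:97788291-97788540, plus strand), Tinf2 a telomere-binding protein (chr14:55681818-55682067, minus strand) and Birc3 an inhibitor of apoptosis in NF-kB signalling (chr9:7873171-7873420, minus strand).
Ppp1r15a: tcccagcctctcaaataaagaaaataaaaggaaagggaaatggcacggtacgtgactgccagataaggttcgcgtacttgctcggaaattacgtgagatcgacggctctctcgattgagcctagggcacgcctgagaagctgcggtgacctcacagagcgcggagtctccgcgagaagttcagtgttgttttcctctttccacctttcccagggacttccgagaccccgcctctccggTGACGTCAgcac
Pak1: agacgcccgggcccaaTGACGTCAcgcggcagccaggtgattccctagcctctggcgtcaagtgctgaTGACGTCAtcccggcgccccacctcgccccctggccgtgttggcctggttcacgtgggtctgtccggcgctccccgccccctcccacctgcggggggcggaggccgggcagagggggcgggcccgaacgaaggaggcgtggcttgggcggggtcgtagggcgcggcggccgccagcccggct
Tinf2: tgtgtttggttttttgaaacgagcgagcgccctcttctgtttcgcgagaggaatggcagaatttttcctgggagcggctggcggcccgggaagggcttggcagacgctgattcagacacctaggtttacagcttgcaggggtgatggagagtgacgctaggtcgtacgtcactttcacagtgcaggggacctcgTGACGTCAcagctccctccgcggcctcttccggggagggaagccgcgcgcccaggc
Birc3: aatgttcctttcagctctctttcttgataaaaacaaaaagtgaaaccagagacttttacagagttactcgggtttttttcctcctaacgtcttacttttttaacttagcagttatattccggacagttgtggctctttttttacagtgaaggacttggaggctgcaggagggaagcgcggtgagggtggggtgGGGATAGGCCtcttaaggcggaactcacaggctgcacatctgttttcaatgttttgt

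CRE letters stood in 7 of the 41 promoter windows at the kept regions (17.1%), at 6 regions, against 3.31% of 12775 windows at regions with 2 CPM or more and 1.79% of all 32851 windows. Windows ran from 250 bases before to 50 after a start, both strands were searched, and the CRE is its own reverse complement. The region at Ppp1r15a, chr7:45522833-45529762, had 28.2 and 29.6 CPM in VAT CD4 cells, 37.3 and 23.0 CPM in male VAT Tregs, 35.1 and 33.3 CPM in female VAT Tregs, and 17.7 and 20.7 CPM in spleen Tregs. It also covers promoter windows of Plekha4, and the counts do not say which gene they belong to. The region at the Pak1 promoter, chr7:97788177-97788498, which the table assigns to Aqp11, had 5.47 and 4.47 CPM in VAT CD4 cells, 7.98 and 5.65 CPM in male VAT Tregs, 7.85 and 5.22 CPM in female VAT Tregs, and 2.09 and 2.43 CPM in spleen Tregs. Its lowest VAT library lay above both spleen libraries, as the rule required of every region. AP-1 letters (TGANTCA) stood in 14.6% of the windows at the kept regions, against 4.78% at regions with 2 CPM or more and 7.81% of all windows, and RUNX letters (TGTGGTT) in 12.2%, against 3.83% and 5.27%. ETS letters (CCGGAAGT) stood in 0 of 41 windows, against 8.31% and 3.89%. The NF-kB form is short of information, standing in 58.5% of windows at the kept regions and 66.6% at regions with 2 CPM or more. These are matches of letters in few windows and are no sign that a factor binds.

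Most of the kept regions were narrow and away from promoters. Of the 470 regions, 349 (74.3%) were under 1000 bp, against 22.6% of all regions with 2 CPM or more, and their median width was 258 bp, against 3275 bp. Outside chromosome 18, for which no promoter windows were used here, 36 of 461 (7.81%) overlapped a promoter window, against 25.2% of the regions with 2 CPM or more. Width moved with this share: 5.26% of the narrow and 15.1% of the wide kept regions overlapped a promoter, against 8.83% and 30.0% of narrow and wide regions with 2 CPM or more. Of 451 regions whose assigned gene could be placed, 231 (51.2%) lay inside that gene, against 63.1% of the larger set. The median distance to the nearest start in the promoter table was 22.5 kb, against 18.3 kb. The 130 regions left out by the CD4 criterion had 95.4% under 1000 bp and a median width of 284 bp, and 1408 regions that met the mirrored criteria, higher in spleen than in all VAT groups, had 54.5% under 1000 bp.

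The VAT mean over the spleen mean had a median of 2.00, from 1.31 upwards, against 0.965 for all regions with 2 CPM or more. It was at least 2 in 237 regions, at least 3 in 84 and at least 5 in 21. Narrow regions had a median ratio of 2.30 and wide regions of 1.502. Wide regions were the more accessible in sum, with a median VAT mean of 23.3 CPM against 3.55 CPM for narrow ones, but the less accessible per length, with 5.74 against 20.4 CPM per kb. Depth limits these values, since the median count per kept region ran from 16 to 86 over the libraries. The margin between the groups was often small, since the lowest VAT library was under 1.1 times the highest spleen library in 102 regions and at least 2 times in 29.

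**Figure D1:**
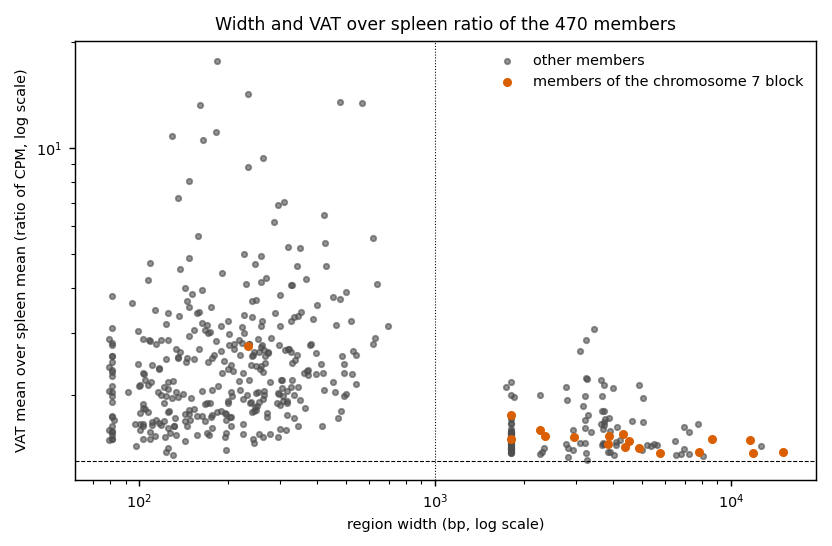
Each point is a kept region, with its width in base pairs on the x axis and the ratio of its VAT mean to its spleen mean on the y axis, both on log scales; the dotted line marks 1000 bp, the dashed line 1.3, the lowest ratio the rule allows, and orange points lie in the chromosome 7 block. Ratios of 5 and more are seen among regions under 1000 bp, and the wide regions stay between 1.31 and 3.08.

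Of regions with at least 20 spleen counts or a VAT mean of 4 CPM, the 10 with the highest ratio of the lowest VAT to the highest spleen library, any region with a predicted gene among its genes left out, lay at Arid5b, Nebl, Dazap2 and Pou6f1, Cblb, Il12rb2, Tmem64, Exoc4, Galnt2, Snx29 and Trpm1. That left out a region shared by A130040M12Rik and Dhx40, with a ratio of 5.29, and the narrow region shared by Gm11978 and Ramp3, with 3.10, against 3.901 at Arid5b. The region at Arid5b, a DNA-binding cofactor, chr10:68081819-68082052, 10.5 kb from the gene, had 6.53 and 6.71 CPM in VAT CD4 cells, 6.92 and 3.91 CPM in male VAT Tregs, 3.36 and 4.01 CPM in female VAT Tregs, and 0.862 and 0.320 CPM in spleen Tregs. The region at Tmem64, chr4:15273216-15273667, had 7.59 and 11.7 CPM in VAT CD4 cells, 13.6 and 12.3 CPM in male VAT Tregs, 10.4 and 8.50 CPM in female VAT Tregs, and 2.83 and 2.82 CPM in spleen Tregs. At Arid5b the male Tregs overlapped the other VAT groups while the CD4 libraries lay above both female ones, and at Tmem64 the CD4 and female libraries overlapped and the male ones lay above them. Cblb, a ubiquitin ligase that dampens antigen receptor signals, had 18.2 and 18.4 CPM in VAT CD4 cells, 3.86 and 2.61 CPM in male VAT Tregs, 4.79 and 4.74 CPM in female VAT Tregs, and 0.862 and 0.448 CPM in spleen Tregs at chr16:52142896-52143461, inside the gene. Here the CD4 libraries stood above all Treg libraries of either tissue, and 2 further kept regions at Cblb did not share that order, with ratios of CD4 to Treg means of 0.68 and 0.95.

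**Figure D2:**
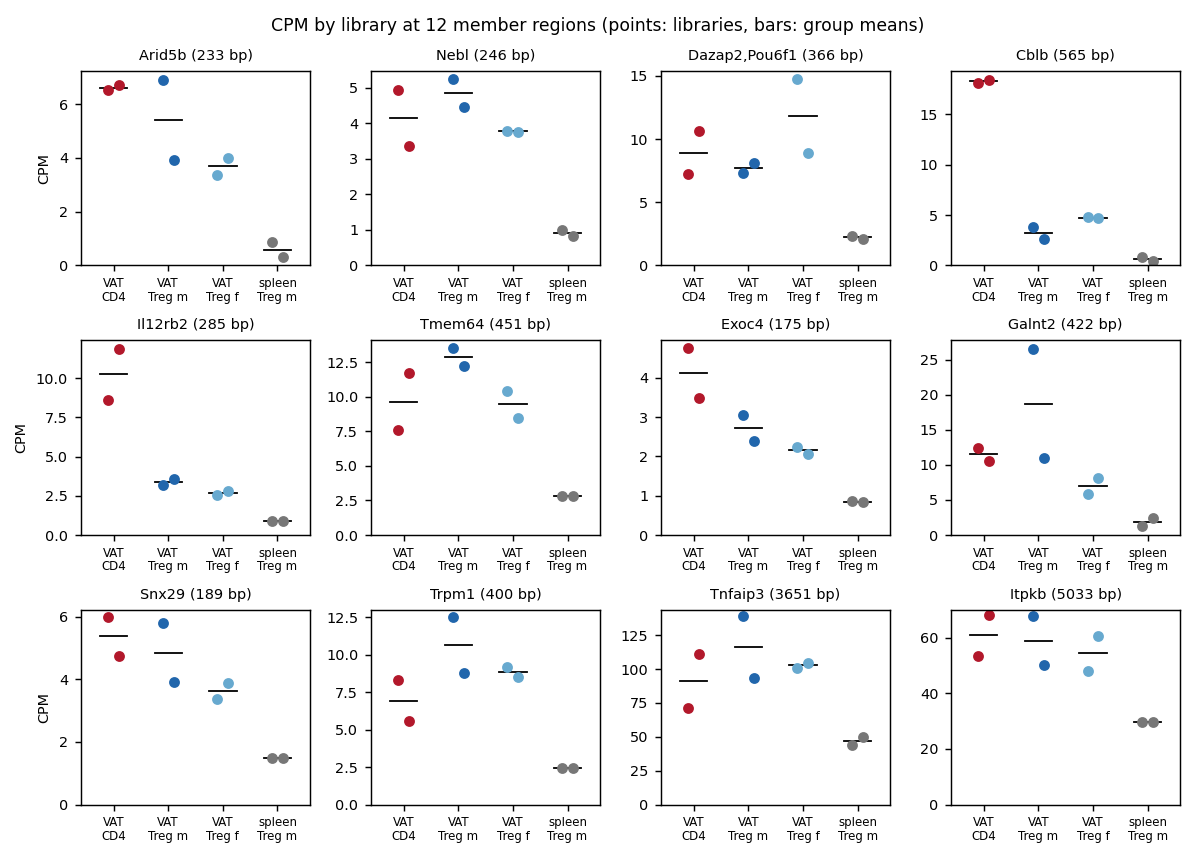
CPM (y axis, from 0) of 12 kept regions in VAT CD4 cells, male VAT Tregs (Treg m), female VAT Tregs (Treg f) and male spleen Tregs; points are the 2 libraries of a group and bars their mean. The spleen libraries lie below all VAT libraries in every panel, as the rule requires, while the order of the VAT groups differs. Both CD4 libraries are highest at Cblb and Il12rb2. Male Tregs have the highest mean at Galnt2 and Trpm1, where their lower library lies within the range of another VAT group.

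Among the most accessible kept regions were those of NF-kB feedback genes. Tnfaip3 encodes A20, a deubiquitinase that shuts off NF-kB signalling. The region chr10:19060610-19064261, 45.2 kb from the gene, had 71.3 and 111 CPM in VAT CD4 cells, 139 and 93.5 CPM in male VAT Tregs, 101 and 105 CPM in female VAT Tregs, and 44.0 and 49.7 CPM in spleen Tregs. It also overlaps a promoter window of the predicted gene Gm51814. A narrow region inside Tnfaip3, chr10:19002931-19003164, had 2.47 and 2.24 CPM in VAT CD4 cells, 4.32 and 2.50 CPM in male VAT Tregs, 2.75 and 1.46 CPM in female VAT Tregs, and 0.370 and 0 CPM in spleen Tregs. That is 157 counts in VAT and 3 in spleen, too few in spleen for a firm ratio. These and 3 further kept regions, assigned to Gm20139 and Il20ra, spanned 0.716 Mb. Birc3 had 67.4 and 75.2 CPM in VAT CD4 cells, 128 and 87.4 CPM in male VAT Tregs, 73.7 and 73.6 CPM in female VAT Tregs, and 49.3 and 51.2 CPM in spleen Tregs. Nfkb1, an NF-kB subunit gene, held a narrow kept region described with the sexes below. Together, 4 of 85 regions at NF-kB subunit and feedback genes were kept (4.71%), against 1.26% of all regions with 2 CPM or more. The 1.26% was not matched for width, and narrow regions were kept more often than wide ones.

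Tissue residence genes held 10 kept regions among 93 (10.8%). The share over all regions with 2 CPM or more, again not matched for width, was 1.26%. The 10 lay at 7 genes: Bhlhe40, Cd44, Hopx, Klf2, Ramp3, Rora and S1pr1. Ramp3 encodes an accessory protein of the adrenomedullin and CGRP receptors. Its wide region, chr11:6693793-6697240, 16.3 kb from the gene, had 29.8 and 47.2 CPM in VAT CD4 cells, 56.6 and 36.2 CPM in male VAT Tregs, 46.3 and 47.7 CPM in female VAT Tregs, and 13.8 and 14.8 CPM in spleen Tregs. This wide region also overlaps a promoter window of the predicted gene Gm39575. The narrow region beside it, chr11:6679694-6680311, had 16.4 and 17.9 CPM in VAT CD4 cells, 25.4 and 13.9 CPM in male VAT Tregs, 22.9 and 17.1 CPM in female VAT Tregs, and 2.34 and 4.48 CPM in spleen Tregs. The 3 VAT groups overlapped at both. Klf2 and S1pr1 drive exit from tissues and recirculation, and both had a kept region. The Klf2 promoter region, chr8:72316892-72321113, had 48.2 and 51.3 CPM in VAT CD4 cells, 53.5 and 34.2 CPM in male VAT Tregs, 52.2 and 50.1 CPM in female VAT Tregs, and 30.8 and 34.2 CPM in spleen Tregs. The lowest VAT library and the highest spleen library were almost equal there, in male VAT Treg replicate 2 and spleen replicate 2. Accessibility was not set beside expression here.

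Of the gene lists of activation, most had a share of kept regions above the 1.26% of all regions with 2 CPM or more, each with few regions. The lists were chosen with earlier results of these data known. The 1.26% was not matched for width, and 349 of 8454 narrow regions were kept, against 121 of 28982 wide ones. How far width accounts for the list shares was not tested. MAPK and mRNA decay feedback genes held 6 of 105 regions (5.71%), at Dusp10, Dusp2, Dusp5, Gadd45a and Ier2, and AP-1 and bZIP genes 3 of 66 (4.55%), at Fosl2 and Crem. Fosl2 encodes an AP-1 subunit, and its promoter region, chr5:32132951-32137830, had 47.6 and 79.9 CPM in VAT CD4 cells, 112 and 68.2 CPM in male VAT Tregs, 79.2 and 83.7 CPM in female VAT Tregs, and 34.4 and 39.1 CPM in spleen Tregs. Antigen receptor-induced factor genes held 3 of 82 (3.66%), at Nr4a1 and Nr4a3, orphan nuclear receptors. Glucocorticoid and cAMP response genes held 3 of 93 (3.23%), at Crem, Cxcr4 and Pde4d, and checkpoint and TNF receptor genes 1 of 95 (1.05%), at Icos. Lipid metabolism genes (84 regions), hypoxia and glycolysis genes (47 regions) and Treg core genes (68 regions) held none, which is near the 1.26% share of all regions for lists of these sizes. The 15 lists together covered 275 genes and 41 of the kept regions, so most kept regions lay at genes on no list.

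Genes of effector T cells and cytokine receptors showed no common order of the VAT groups. Il12rb2, the IL-12 receptor chain of Th1 cells, 23.3 kb from its region, had 8.64 and 11.9 CPM in VAT CD4 cells, 3.19 and 3.58 CPM in male VAT Tregs, 2.55 and 2.79 CPM in female VAT Tregs, and 0.862 and 0.896 CPM in spleen Tregs at chr6:67399589-67399874. The region assigned to Ifng, the Th1 cytokine gene, chr10:118633473-118633791, had 8.11 and 13.3 CPM in VAT CD4 cells, 5.12 and 4.56 CPM in male VAT Tregs, 4.59 and 5.59 CPM in female VAT Tregs, and 2.22 and 2.88 CPM in spleen Tregs. It lies 188 kb from the gene. At both regions the CD4 libraries were above all VAT Treg libraries, which in turn were above spleen. Il4ra, the receptor chain shared by IL-4 and IL-13, had the opposite order among VAT means: chr7:125579795-125582888 had 22.8 and 28.9 CPM in VAT CD4 cells, 56.1 and 32.6 CPM in male VAT Tregs, 33.8 and 27.6 CPM in female VAT Tregs, and 12.7 and 12.5 CPM in spleen Tregs. Stat4, which carries the IL-12 signal, also had the lower mean in CD4 cells, with 3.18 and 4.33 CPM in VAT CD4 cells, 7.18 and 4.34 CPM in male VAT Tregs, 5.71 and 3.40 CPM in female VAT Tregs, and 2.22 and 1.5995 CPM in spleen Tregs at chr1:52055912-52056241. Il1r1, an IL-1 receptor gene, had 2.65 and 4.61 CPM in VAT CD4 cells, 5.05 and 3.47 CPM in male VAT Tregs, 3.57 and 3.04 CPM in female VAT Tregs, and 1.355 and 1.47 CPM in spleen Tregs at chr1:40271152-40271425. Ccr2, a chemokine receptor gene 21.9 kb from its region, had 2.82 and 2.80 CPM in VAT CD4 cells, 3.46 and 1.41 CPM in male VAT Tregs, 3.26 and 3.04 CPM in female VAT Tregs, and 0.985 and 1.22 CPM in spleen Tregs at chr9:124079847-124079992. At Il1r1 the CD4 libraries overlapped those of both Treg groups, and at Ccr2 those of the male Tregs. Effector and Th1 genes held 4 of 67 regions (5.97%), Th2 and Th17 genes 4 of 61 (6.56%), and cytokine and chemokine receptor genes 4 of 104 (3.85%). VAT Treg genes held 7 of 109 (6.42%), and naive and lymphoid homing genes 4 of 92 (4.35%). The share over all regions with 2 CPM or more was 1.26%, not matched for width, and 349 of 8454 narrow regions were kept.

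In CD4 cells relative to VAT Tregs, the ratio of means had a median of 0.993 over the kept regions and ran from 0.672 to 6.6, the lower end being set by the rule. It was at most 1 in 244 regions, of which 75 were below 0.8, above 1 and up to 2 in 189, and above 2 in 37. The median depended on scaling: on the log2 scale it was -0.01 with library totals, 0.12 with TMM factors and 0.25 when scaled on narrow regions, while the median of all regions with 2 CPM or more moved with it, from -0.10 to 0.03 and 0.15. Both CD4 libraries lay above all 4 VAT Treg libraries in 79 regions (16.8%), against 6.38% of all regions with 2 CPM or more, and below all of them in 12 (2.55%), against 15.99%, but the limit of 0.67 removes regions where CD4 cells lie below Tregs and so fixes part of this contrast. Medians of the group means were 5.00 CPM in VAT CD4 cells, 4.88 CPM in male VAT Tregs, 3.96 CPM in female VAT Tregs and 2.06 CPM in spleen Tregs.

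**Figure D3:**
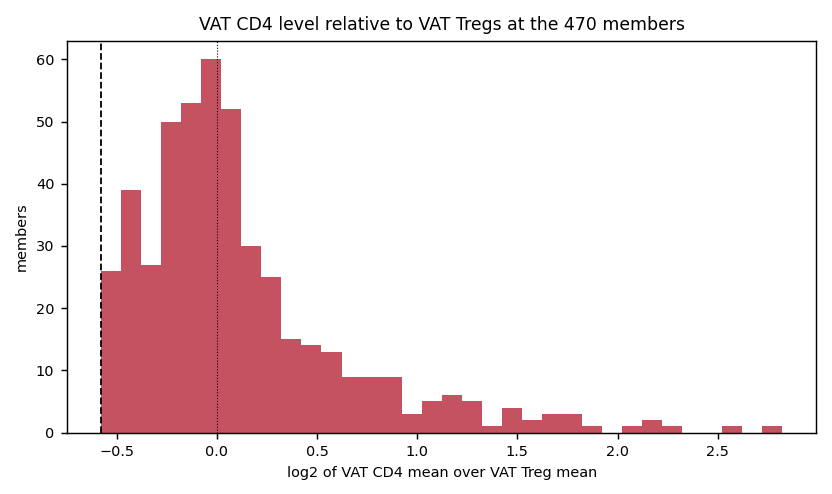
Number of kept regions (y axis) by the log2 ratio of the VAT CD4 mean to the VAT Treg mean (x axis, bins of 0.1); the dashed line marks the limit of 0.67 set by the rule and the dotted line an equal level. The distribution is cut at the limit, peaks near equality and has a tail of 37 regions with CD4 cells more than 2 times VAT Tregs.

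The tail was led by Klhl5, where chr5:65113464-65113648 had 5.64 and 6.99 CPM in VAT CD4 cells, 0.798 and 0.652 CPM in male VAT Tregs, 1.53 and 0.850 CPM in female VAT Tregs, and 0.246 and 0.0640 CPM in spleen Tregs. It had 122 counts in VAT and 3 in spleen. The region assigned to Atp10a, a lipid flippase gene 263 kb away, had 6.70 and 8.81 CPM in VAT CD4 cells, 1.46 and 1.63 CPM in male VAT Tregs, 1.22 and 1.94 CPM in female VAT Tregs, and 0.739 and 0.896 CPM in spleen Tregs at chr7:58392476-58392667. At both, the CD4 libraries lay above all VAT Treg libraries, and these above both spleen libraries. Of the 37 regions with CD4 cells more than 2 times VAT Tregs, 8 had Treg means of both sexes at least 2 times spleen. Il10, the gene of a suppressive cytokine, stood near the lower limit: chr1:131038122-131038449, 13.2 kb from the gene, had 2.65 and 3.49 CPM in VAT CD4 cells, 7.58 and 3.47 CPM in male VAT Tregs, 2.75 and 4.37 CPM in female VAT Tregs, and 1.48 and 2.37 CPM in spleen Tregs. Plb1 was the last region inside the limit at 0.672, and a region at Smug1 the first outside it at 0.669. At the spleen criterion, Derl1 and Erc2 stood inside at 1.302 and Fam155a outside at 1.298, and at the level criterion Adarb2 stood inside at 2.02 CPM and Pik3r5 outside at 1.9999 CPM.

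The kept regions lay in runs. With gaps of at most 1 Mb, 88 runs held 241 regions and 229 stood alone. Chromosomes 19, 1 and 7 held the highest shares of their regions with 2 CPM or more, 2.21%, 1.94% and 1.87%, and chromosome 18 the lowest, 0.604%. The longest run by count was on chromosome 7, from 136388489 to 138586631, with 18 kept regions over 2.20 Mb, of which 11 were assigned to Tcerg1l, a transcription elongation regulator-like gene that 2 of them lie inside, and others to Mgmt, a DNA repair gene, and Glrx3, a glutaredoxin. Of these, 17 were 1000 bp or wider and 6 were at least 5000 bp, against 22 of that width among all 470. The widest, chr7:138448330-138463281, 50.6 kb from Tcerg1l, had 80.8 and 70.3 CPM in VAT CD4 cells, 72.0 and 78.5 CPM in male VAT Tregs, 74.5 and 73.9 CPM in female VAT Tregs, and 54.1 and 54.9 CPM in spleen Tregs. The VAT groups overlapped, and the ratio to spleen was 1.38.

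The block extended beyond its kept regions. All 114 regions in it summed to 4101 and 3823 CPM in VAT CD4 cells, 3784 and 4023 CPM in male VAT Tregs, 3696 and 3325 CPM in female VAT Tregs, and 2967 and 2986 CPM in spleen Tregs. Of the 91 with 2 CPM or more, the kept regions had all VAT libraries above both spleen libraries by the rule. Of the 73 others, 69 had a VAT mean above the spleen mean and 38 (52.1%) had all VAT libraries above both spleen libraries. Within 2 Mb on either side these counts were 68 and 11 (11.2%) of 98 regions with 2 CPM or more. All VAT libraries lay above both spleen libraries in 3.69% of all autosomal regions with 2 CPM or more. Without the kept regions the median log2 ratio of VAT to spleen was 0.34 over the 73 others, against 0.11 over 98 such regions within 2 Mb on either side and -0.05 over all autosomal regions. The block was found through the rule, and its ratio is given without a test. No region in it was called between the sexes, which for 114 regions is near the share over all autosomal regions. Of those tested, 2.07% were called higher in males and 0.75% lower. Of wide ones 0.559% were called higher, and 17 of the 18 kept regions here were wide.

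**Figure D4:**
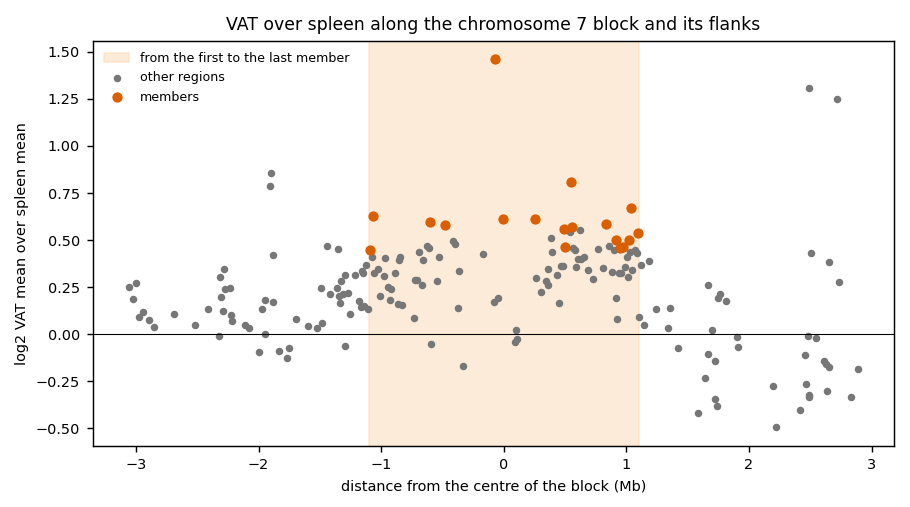
Log2 of the VAT mean over the spleen mean (y axis) for regions with 2 CPM or more along the chromosome 7 block and 2 Mb on either side, by distance from the centre of the block (x axis, Mb); orange points are kept regions and shading runs from the first to the last of them. Within the shading 87 of 91 regions lie above 0, the kept ones by the rule and 69 of the 73 others, and the median of the flanks is 0.11.

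Other runs were shorter. On chromosome 1, 10 kept regions lay from 84373484 to 85617416, at Dner and at Gm2619, Sp110 and Sp140. Gm2619, Sp110 and Sp140 belong to a family of near-identical copies among which reads could be split, so these regions are uncertain. On the same chromosome 8 lay from 180215200 to 182383328, among them Itpkb, a kinase that limits calcium signals, with 53.6 and 68.2 CPM in VAT CD4 cells, 67.7 and 50.2 CPM in male VAT Tregs, 48.1 and 60.8 CPM in female VAT Tregs, and 29.6 and 29.6 CPM in spleen Tregs. Vps37b, an endosomal sorting gene, held 5 kept regions within 0.036 Mb of chromosome 5, 3 of them also assigned to Hip1r. The widest, chr5:124032674-124036657, had 34.2 and 35.4 CPM in VAT CD4 cells, 35.05 and 24.4 CPM in male VAT Tregs, 30.4 and 34.7 CPM in female VAT Tregs, and 12.8 and 18.2 CPM in spleen Tregs. Behind Tcerg1l and Vps37b, 7 genes held 3 each: Rora, the nuclear receptor gene of type 2 and Th17 cells, Fasl, the death ligand, Ostf1, Runx1, a T cell factor, Dner, Hip1r and Cblb. Regions of a run share their surroundings and are not independent.

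The study asked how Tregs of male and female VAT differ, and this is the comparison the rule used least, although both sexes had to exceed spleen and the Treg libraries of both stand in the denominator of the CD4 criterion. By edgeR's quasi-likelihood test, adjusted by Benjamini-Hochberg across the whole table, 22 of the 470 kept regions (4.68%) were higher in male than in female VAT Tregs and 0 were lower. Of all 44691 autosomal regions tested, 2.07% were higher and 0.75% lower. With no adjustment, p was under 0.05 in 70 kept regions that were higher and in 5 that were lower. Over the 37436 regions with 2 CPM or more, these counts were 2305 and 2414. Among narrow kept regions they were 60 and 5 of 349, against 1253 and 315 of 8454 narrow regions with 2 CPM or more. DESeq2 and limma-voom also called 0 kept regions lower. Width again moved with the count: 19 of 349 narrow kept regions were called (5.44%), against 4.85% of all narrow regions and 6.80% of those with 2 CPM or more, and 3 of 121 wide ones (2.48%), against 0.559%. The narrow share is thus close to the background. Both male libraries lay above both female libraries in 130 kept regions (27.7%), against 20.8% of regions with 2 CPM or more, and below them in 42 (8.94%), against 19.5%. These shares were not matched for width. The median log2 fold change, male over female, was 0.22 over narrow and 0.04 over wide kept regions. Over narrow and wide regions with 2 CPM or more it was 0.09 and -0.01. Among the 130 regions left out by the CD4 criterion, 54 (41.5%) were called higher in males, but a high VAT Treg value in either sex itself moves a region out of the kept set.

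The calls rest largely on male VAT Treg replicate 1, the library that stood apart. It was the highest of the 4 VAT Treg libraries in 241 kept regions (51.3%). Male replicate 2 was highest in 80, female replicate 1 in 86 and female replicate 2 in 63, and these shares were not taken over all regions. Without male replicate 1 the log2 fold changes at Gvin1, Zfp536 and Itpr2 were 1.96, 1.97 and 1.07, against 2.50, 2.35 and 1.72 with all libraries. Such a fit leaves 1 library in a group, so its calls cannot be set beside the main ones. With all libraries, the median log2 fold change, male over female, was 0.13 over the kept regions and 0.01 over all autosomal regions. Without male VAT Treg replicate 1 these medians were 0.04 and 0.01, and without male VAT Treg replicate 2 they were 0.20 and -0.0003. Without female VAT Treg replicate 1 they were 0.16 and 0.04, and without female VAT Treg replicate 2 they were 0.14 and 0.01. The region assigned to Gvin1, a large interferon-inducible GTPase gene 55.6 kb away, chr7:106270988-106271247, had 13.2 and 6.84 CPM in male VAT Tregs and 1.83 and 1.70 CPM in female VAT Tregs, with 4.94 and 3.77 CPM in VAT CD4 cells and 1.11 and 1.47 CPM in spleen Tregs. Its log2 fold change, male over female, was 2.50 ± 0.36 (SE, adjusted p = 1.33e-08), and the adjusted p ran up to 0.00453 over 13 alternatives. Zfp536, a zinc finger gene, had 10.8 and 6.73 CPM in male and 1.63 and 1.82 CPM in female VAT Tregs at chr7:37437926-37438351, a log2 fold change of 2.35 ± 0.39 (adjusted p = 1.60e-06, up to 0.00783 over the alternatives). Itpr2, a calcium channel gene of the endoplasmic reticulum, had 21.7 and 10.1 CPM in male and 5.40 and 4.25 CPM in female VAT Tregs at chr6:146271183-146271822 (adjusted p = 1.34e-07, up to 0.0455). The female libraries at these 3 regions lay above both spleen libraries and below all male ones.

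The other 19 called regions also had smaller log2 fold changes without male VAT Treg replicate 1, among them 1.63 at Nfkb1, 0.94 at Furin, 0.68 at Dusp10 and 1.44 at Il2. Nfkb1 had 8.98 and 4.34 CPM in male and 0.815 and 2.06 CPM in female VAT Tregs at chr3:135602800-135603059, inside the gene, a log2 fold change of 2.25 ± 0.43 (adjusted p = 6.30e-05, up to 0.119 over the alternatives). Furin, a protease gene that activates TGF-beta, 11.5 kb from its region, had 20.3 and 7.27 CPM in male and 3.67 and 4.01 CPM in female VAT Tregs at chr7:80416934-80417435, a log2 fold change of 1.86 ± 0.29 (adjusted p = 2.43e-07, up to 0.201). Dusp10, a MAPK phosphatase gene 46.2 kb from its region, had 39.0 and 21.2 CPM in male and 13.8 and 12.9 CPM in female VAT Tregs at chr1:183987658-183988137, a log2 fold change of 1.17 ± 0.21 (adjusted p = 1.09e-05, up to 0.115). In each case both male libraries exceeded both female ones, and replicate 1 was by far the higher of the male pair. The region at Il2, the gene of the main T cell growth factor, chr3:37173304-37173599, 47.4 kb from the gene, had 7.91 and 4.99 CPM in male and 1.12 and 2.67 CPM in female VAT Tregs, with 7.06 and 6.01 CPM in VAT CD4 cells and 0.739 and 0.704 CPM in spleen Tregs (adjusted p = 0.000951, up to 0.270). The other called regions lay at Dynlt1c and Gm2808, Osbpl9, Zcchc2, Myadm, Iqgap1, Pxdc1, Smg9, Galnt2, Rora, Lmna, Odc1, Cytip, Amn1, Lonrf1 and Birc3.

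**Figure D5:**
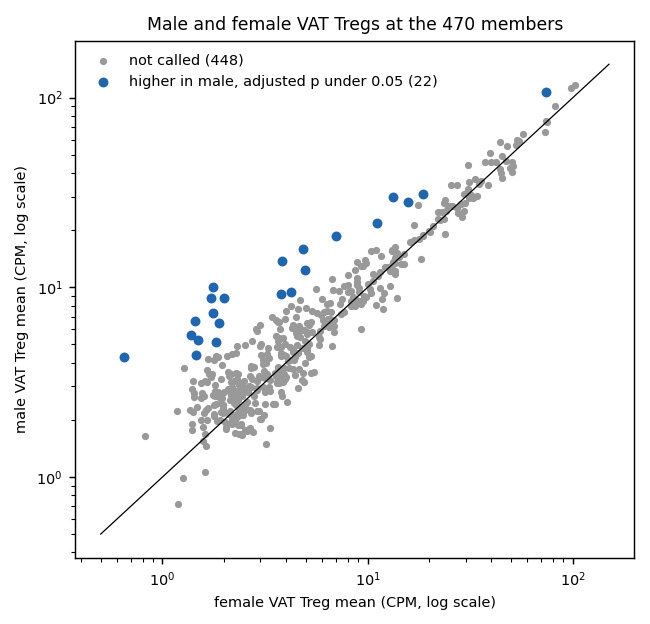
Mean CPM of the kept regions in male VAT Tregs (y axis) against female VAT Tregs (x axis), both on log scales, with the line of equal levels; blue points are the 22 regions called higher in males and grey points the other 448. All blue points lie above the line, and most are at low levels.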

How the data were processed

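ATAC-seq libraries were mapped to mm10 (GRCm38), per the submitters' processing notes, which list limma, featureCounts, HOMER 4.9 and Subread 1.6.2 with no roles; how regions were called is not given in the sources used here. The authors deposited raw counts per region in 1 table of 62205 entries (46624 distinct regions, 45402 on chromosomes 1 to 19) and log2 CPM values per library. Each deposited log2 value equals the log2 of the count plus 0.5 up to 1 constant per library, and 3511 entries are missing there; these values served 1 alternative.

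Entries were reduced to distinct regions, and CPM computed over autosomal ones. Positions and assigned genes are those of the table, which does not state whether starts count from 0 or 1. The members and gene lists were chosen with earlier results of these data known. The sexes were compared with edgeR 4.0.16 (R 4.3.3): TMM factors, filterByExpr, a quasi-likelihood fit of 4 groups over 8 libraries with 4 residual degrees of freedom, Benjamini-Hochberg adjustment over autosomal, X and Y regions, and a threshold of 0.05. The script was tested on simulated data. Alternatives used DESeq2 1.42.0, limma 3.58.1, other scalings, thresholds and left-out libraries. An SE is the log2 fold change divided by the root of its F statistic. With 2 pooled libraries a group, p-values measure only the spread between these libraries.

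Regions were named by a rule: the 10 with the highest ratio of the lowest VAT to the highest spleen library (at least 20 spleen counts or a VAT mean of 4 CPM), the 10 with the highest VAT mean, up to 3 per gene list, the 5 strongest between the sexes, the 5 at either end of the CD4 to Treg ratio, the genes with most kept regions (5, extended to all ties), and those next to a threshold, regions with any predicted gene left out (not for lists and sexes). Regions named otherwise (at Ppp1r15a, Pak1, Itpr2 and Il2, the wide ones at Ramp3 and Fosl2, and those given as other observations) were chosen with their values known. Promoter windows are RefSeq's (GRCm38.p6). No pairing by replicate number was assumed.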

Additional observations from a re-analysis of the deposited data

How the results depend on the processing

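Stricter or looser criteria changed how many regions were kept: 1054 at 1.1 times spleen, 284 at 1.5 times, 115 at 2 times, 226 with CD4 cells at least equal to Tregs, 270 at 4 CPM and 153 at 8 CPM, against 470. Leaving out 1 library gave 460 to 1827, with 720 without spleen Treg replicate 1 and 1827 without spleen Treg replicate 2. TMM scaling kept 654 regions, 468 of them shared, scaling on narrow regions 437 (338 shared) and the deposited log2 values 701 (442 shared). The median log2 ratio of VAT CD4 to VAT Treg levels changed sign with scaling, from -0.01 to 0.12 with TMM and 0.25 on narrow regions. The promoter share of 7.81% was 5.26% for narrow and 15.1% for wide regions, and 89.8% of regions were under 1000 bp at 1.5 times spleen. The count higher in male VAT Tregs, 22, became 14 with TMM on narrow regions and 12 with DESeq2, and 3 to 43 when 1 library was left out; the cause was not tested. No alternative called a kept region lower. The 22 called regions had 286 alternative values, of which 215 stayed past the threshold, 71 did not and 0 reversed.

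Replicate numbers are shared by the groups, but the labels do not say that they pair libraries, and replicate differences correlated between groups at -0.319 to 0.160 over regions. With a replicate block, 20 kept regions were called higher in male VAT Tregs, as were 1.75% of all autosomal regions tested, against 22 and 2.07% without it.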

Other observations

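On the X chromosome, which the criteria left out, 11 of 1083 regions met them, and 8 more met all but the CD4 criterion. They lay among others at Stag2, a cohesin subunit gene, Elf4, an ETS factor gene, and Tsc22d3, which encodes the glucocorticoid-induced GILZ. The Stag2 region, chrX:42152066-42152356, had 6.70 and 11.04 CPM in VAT CD4 cells, 8.25 and 6.30 CPM in male VAT Tregs, 7.64 and 5.95 CPM in female VAT Tregs, and 3.45 and 4.03 CPM in spleen Tregs. The Tsc22d3 region, chrX:140537768-140537941, had 3.53 and 2.66 CPM in VAT CD4 cells, 3.59 and 4.23 CPM in male VAT Tregs, 4.28 and 2.79 CPM in female VAT Tregs, and 2.22 and 1.66 CPM in spleen Tregs.

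Among genes used as markers of other cell types, 4 had a kept region: Itgam, Arg1, Kit and Cxcl12. These were 1 of 24 myeloid regions with 2 CPM or more (4.17%) and 2 of 11 ILC2 and mast cell regions (18.2%). Stromal and endothelial markers held 1 of 37 (2.7%). B cell (15 regions), CD8 and NK cell (9 regions) and adipocyte markers (18 regions) held 0. The share over all regions with 2 CPM or more, not matched for width, was 1.26%. The region at Itgam, the CD11b integrin gene of myeloid cells, chr7:128050766-128050919, 11.7 kb from the gene, had 4.06 and 1.54 CPM in VAT CD4 cells, 3.66 and 1.303 CPM in male VAT Tregs, 2.75 and 2.43 CPM in female VAT Tregs, and 0.985 and 1.09 CPM in spleen Tregs. All 3 Itgam regions summed to 4.34 to 7.18 CPM over the VAT libraries and to 1.97 and 3.26 CPM in spleen, while those of Spi1, the PU.1 gene of myeloid cells, summed to 9.17 to 11.97 CPM in VAT and 11.8 and 16.1 CPM in spleen.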
